A study of Mus musculus with 12 samples.

Results

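The 10 genes described here are receptors for products of microbes, and 2 of their partners, in the mouse heart: the Toll-like receptors Tlr1, Tlr2, Tlr3, Tlr4, Tlr5, Tlr7, Tlr9 and Tlr13, the endotoxin co-receptor Cd14 and the adaptor Myd88. They were taken from the deposited table by gene symbol. All 10 were listed among the table's 17536 genes, and all 10 were among the 13489 genes with enough counts to be tested. RNA sequencing was done on hearts of ICR mice aged 10 weeks, in 12 libraries that form 4 groups of 3. One group is labelled only as control and one received busulfan (20 mg/kg), a bone-marrow-depleting alkylating drug. The labels of the others are B+Con-FMT and B+AOS10mg/kg-FMT, called control-FMT and AOS-FMT here, where B is read as busulfan because the study's design concerns hearts damaged by it. FMT is the usual short form of faecal microbiota transplantation. The labels give AOS unexpanded, no busulfan dose in the FMT groups, no donors and no time of sampling. They do not say whether a library is a single animal or a whole heart, so the p-values measure only the spread between these libraries.

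Toll-like receptors recognise molecules that are common to many microbes. Tlr4 responds to endotoxin, the lipopolysaccharide of Gram-negative bacteria, which Lbp carries in plasma and Cd14 passes on to Tlr4 and its partner Ly96. Tlr2 pairs with Tlr1 or Tlr6 to bind bacterial lipopeptides, Tlr5 binds flagellin, and all of these act at the cell surface, while Tlr3, Tlr7, Tlr9 and Tlr13 read nucleic acids inside endosomes. All of them but Tlr3 signal through Myd88, and in the heart they are carried by macrophages, endothelial cells, fibroblasts and muscle cells to differing degrees.

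Library totals ran from 11333650 to 14335688 estimated counts, and 1 read was worth 0.0645 to 0.087 CPM (counts scaled to a common library size, with TMM factors). Muscle markers were high in every library, with Myh6, Tnnt2, Actc1, Ryr2 and Myl2 together at 63219 to 93331 CPM in control, 86991 to 108261 CPM in busulfan, 77784 to 82386 CPM in control-FMT and 61122 to 75517 CPM in AOS-FMT. Their sum was thus highest in busulfan, without overlap with either FMT group. The libraries differed in other tissue content. The 4 atrial markers summed to 546 to 5985 CPM in control, 8.18 to 882 CPM in busulfan, 14.2 to 1255 CPM in control-FMT and 874 to 8414 CPM in AOS-FMT. The 12 liver markers summed to 59.2 to 154 CPM in control, 61.4 to 88.6 CPM in busulfan, 66.2 to 112 CPM in control-FMT and 139 to 845 CPM in AOS-FMT, the highest being AOS-FMT replicate 3. The 14 macrophage markers, none at 0 throughout a group, summed to 760 to 1056 CPM in control, 492 to 687 CPM in busulfan, 594 to 1096 CPM in control-FMT and 767 to 1089 CPM in AOS-FMT. The 5 fibroblast markers summed to 1813 to 3095 CPM in control, 1303 to 1724 CPM in busulfan, 1692 to 2077 CPM in control-FMT and 1891 to 3175 CPM in AOS-FMT, so busulfan again lay lowest. Neutrophil markers were scarce at 3.81 to 9.08 CPM in all, and Ly6g was at 0 in every library of the control, busulfan and control-FMT groups. In whole tissue, fewer cells of a type and less RNA per cell cannot be told apart.

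Levels of different genes were compared in TPM, the authors' values corrected for gene length. Cd14 was the most abundant of the 10 in each of the 12 libraries, at 9.2 to 19.29 TPM with a mean of 13.6 TPM, and Myd88 was second in each, at 7.22 to 16.03 TPM with a mean of 10.6 TPM. Among the receptors Tlr3 came first with a mean of 5.003 TPM, and it lay above Tlr4 in 12 of 12 libraries. Tlr4 had 3.79 TPM and Tlr2 3.30 TPM, and they changed places, with Tlr4 higher in 8 of 12 libraries. Tlr13 (1.86 TPM), Tlr7 (1.61 TPM) and Tlr1 (1.20 TPM) formed a middle set whose ranges overlapped. Tlr9 at 0.408 TPM and Tlr5 at 0.398 TPM were the lowest, and neither stood above the other, since Tlr9 was higher in 6 of 12 libraries. Tlr9 and Tlr5 rested on few reads, 6 to 20 counts a library for Tlr9 and 6 to 25 for Tlr5. Of the receptors of the family outside the 10, Tlr6 at 1.32 TPM and Tlr8 at 1.07 TPM had means near that of Tlr1, and Tlr11 at 0.0733 TPM and Tlr12 at 0.0342 TPM had means below those of all 10.

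**Figure D1:**
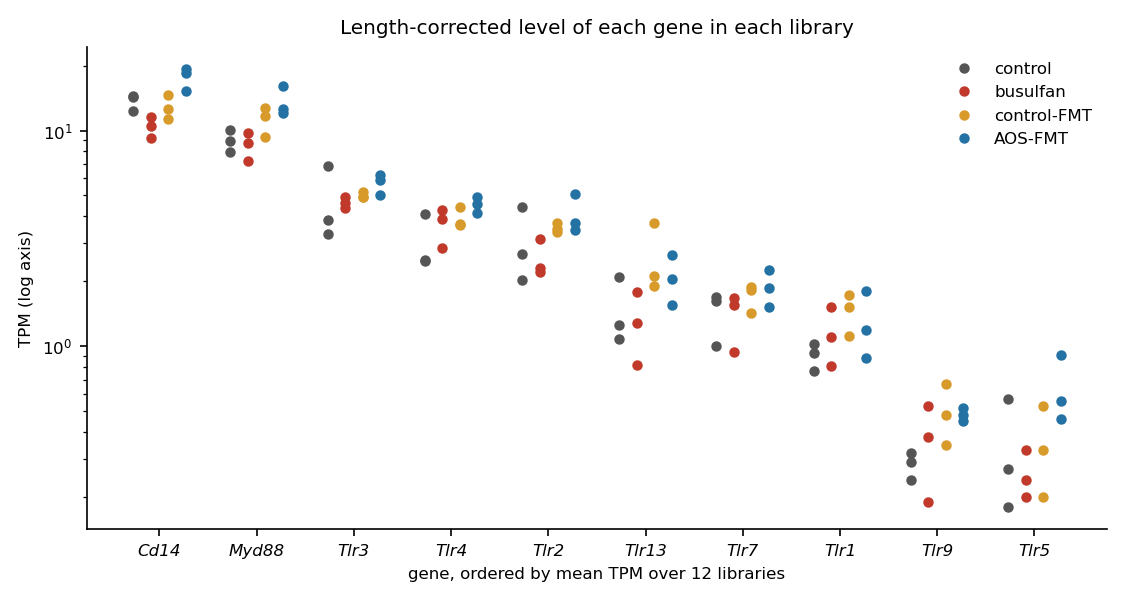
TPM of each of the 10 genes (log axis) in each of the 12 libraries, coloured by group, with genes ordered by their mean. Cd14 and Myd88 lie above every receptor, and Tlr9 and Tlr5 lie at the bottom, below 1 TPM in every library.

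Each gene was tested in the 6 pairwise comparisons of the groups with the quasi-likelihood test of edgeR, and p-values were adjusted by the Benjamini-Hochberg method over all 13489 genes. No member passed an adjusted p of 0.05 in any comparison, and the smallest of the 60 adjusted p-values was 0.219, for Cd14 in AOS-FMT against busulfan. At an unadjusted p under 0.05 there were 8 of 60, and DESeq2 called 1, the same Cd14 difference, at an adjusted p of 0.0276. Few genes of any kind passed: 0.0593% of all genes higher and 0% lower in busulfan against control, 0% in either direction in control-FMT against busulfan, and 0.0445% higher and 0% lower in AOS-FMT against busulfan. In AOS-FMT against control-FMT the shares were 0.0297% and 0%, in control-FMT against control 0% and 0%, and in AOS-FMT against control 0.0741% and 0.00741%. These small numbers also moved with single libraries: leaving out each in turn gave 0 to 14 genes in place of 8 in busulfan against control, 0 to 20 in place of 6 in AOS-FMT against busulfan and 1 to 17 in place of 11 in AOS-FMT against control. The highest counts came without control replicate 2 in the first and without AOS-FMT replicate 1 in the others. Counts of 0 came without control replicate 3, busulfan replicate 1 or 2, or control-FMT replicate 1 in the first and without busulfan replicate 1 or 2 in the second, and the count of 1 in the third came without control replicate 1. The differences given below are therefore measured values that did not pass the test over all genes.

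**Figure D2:**
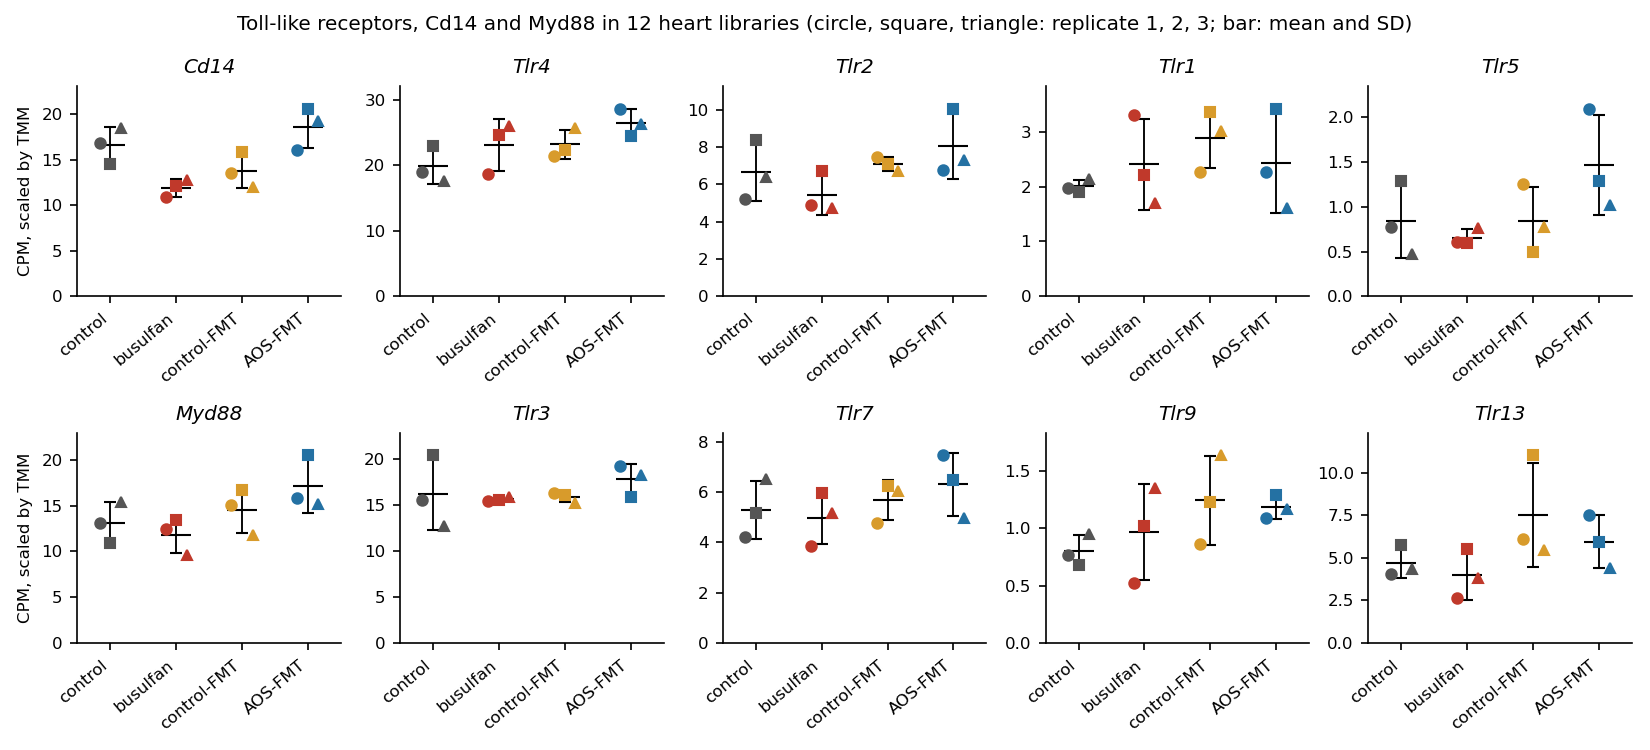
CPM of each of the 10 genes in each library, by group, with symbols for replicates 1 to 3 and a bar for the mean and SD (n = 3). Cd14 in busulfan (10.9 to 12.8 CPM) lies below Cd14 in control (14.5 to 18.4 CPM) and in AOS-FMT (16.02 to 20.6 CPM), while Tlr3, Tlr7 and Tlr13 overlap between all groups.

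Cd14, the co-receptor that hands endotoxin to Tlr4, had the clearest pattern. In control it had 16.8, 14.5 and 18.4 CPM, in busulfan 10.9, 12.05 and 12.8 CPM, in control-FMT 13.5, 15.9 and 11.99 CPM and in AOS-FMT 16.02, 20.6 and 19.2 CPM. Every busulfan library lay below every control library and below every AOS-FMT library, every AOS-FMT library lay above every control-FMT library, and control-FMT overlapped both busulfan and control. Busulfan against control gave a log2 fold change of -0.48 ± 0.15 (SE, 3 libraries a group; edgeR adjusted p = 0.303), AOS-FMT against busulfan gave 0.65 ± 0.15 (edgeR adjusted p = 0.219) and AOS-FMT against control-FMT gave 0.43 ± 0.14 (edgeR adjusted p = 0.752). With the atrial or the liver score as a covariate the last was 0.41 or 0.43 and no longer had an unadjusted p under 0.05. Against control, AOS-FMT stood at 0.17 ± 0.14 and control-FMT at -0.26 ± 0.14. The 2 larger differences share the busulfan libraries and so are not independent. Of all genes, 6.38% were lower and 7.74% higher without overlap in busulfan against control, 10.3% higher and 10.9% lower in AOS-FMT against busulfan, and 6.52% higher and 7.29% lower in AOS-FMT against control-FMT. Cd14 (NCBI gene 12475) is a protein-coding gene on chromosome 18 at 36725064 to 36726815 of the GRCm38.p6 assembly (mm10), which all positions below use.

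Macrophages are among the cells that carry Cd14. Of 14 macrophage markers, 5 were lower and 1 higher at an unadjusted p under 0.05 in busulfan against control (all genes, 5.78% and 5.54%), with a median log2 fold change of -0.49. There, 3 of 5 fibroblast and 5 of 5 platelet markers were also lower, with medians of -0.63 and -2.26. Of 5 endothelial markers 2 were higher, and of 12 liver markers 2 were higher and 1 lower. In AOS-FMT against busulfan 9 macrophage markers were higher and 0 lower (all genes, 7.80% and 5.85%), with a median of 0.55. Markers of other tissues differed in that comparison too: 4 of 5 fibroblast and 12 of 12 liver markers were higher and 4 of 5 muscle markers lower. None of these markers passed over all genes with edgeR. Per 1000 CPM of summed macrophage markers in the same library, Cd14 had 17.4 to 21.6 CPM in control, 17.5 to 22.1 CPM in busulfan, 14.5 to 20.2 CPM in control-FMT and 18.1 to 25.1 CPM in AOS-FMT. On that scale all 4 groups overlapped. The part of macrophage, fibroblast, platelet, endothelial, muscle or liver content in the Cd14 differences was not tested.

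**Figure D3:**
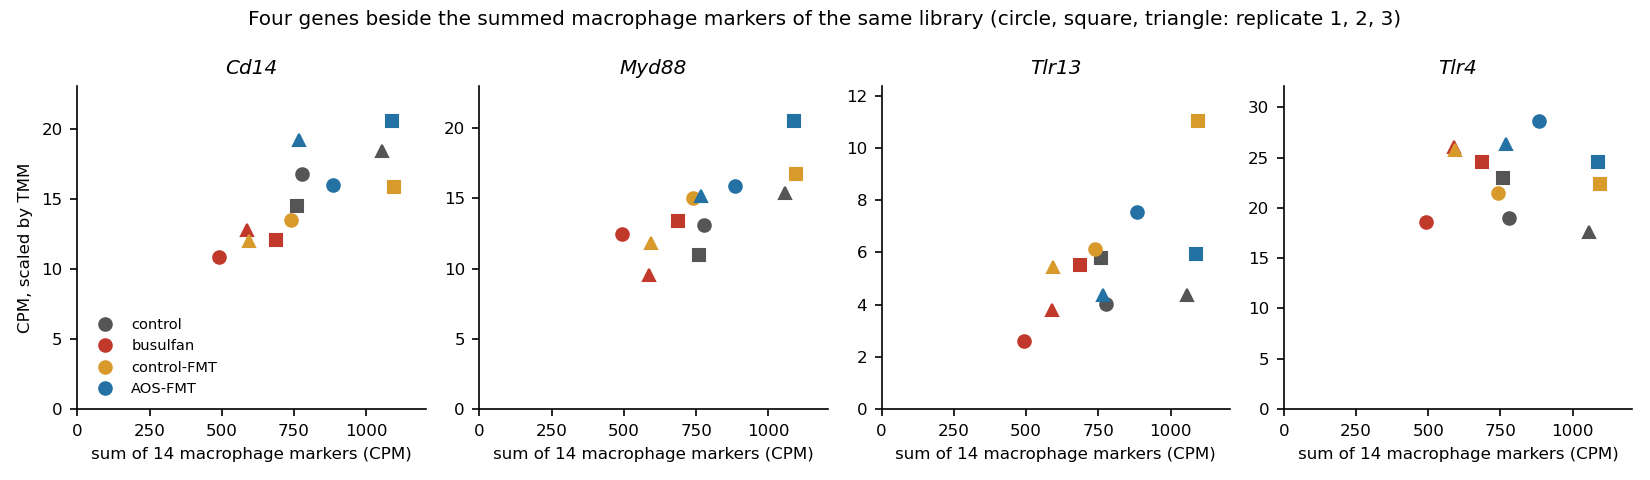
CPM of Cd14, Myd88, Tlr13 and Tlr4 (vertical axes) against the summed CPM of 14 macrophage markers in the same library (horizontal axes), with 1 point per library, coloured by group and shaped by replicate. The 3 busulfan libraries sit at the low end of both axes for Cd14 (10.9 to 12.8 CPM beside 492 to 687 CPM of markers), with control-FMT replicate 3 among them, while Tlr4 shows no such arrangement.

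Tlr4, the signalling receptor for endotoxin, did not follow Cd14. It had 19.0, 22.9 and 17.6 CPM in control, 18.6, 24.6 and 26.05 CPM in busulfan, 21.5, 22.4 and 25.7 CPM in control-FMT and 28.7, 24.5 and 26.3 CPM in AOS-FMT. The AOS-FMT libraries all lay above the control libraries, and the other pairs of groups overlapped. AOS-FMT against control had a log2 fold change of 0.42 ± 0.14 (edgeR adjusted p = 0.405), where 6.63% of all genes were higher without overlap and 3.80% lower. It was 0.33 without control replicate 3 and 0.41 with the liver score as a covariate, in neither case with an unadjusted p under 0.05. Busulfan against control stood at 0.22 ± 0.14, opposite in sign to Cd14, and AOS-FMT against busulfan at 0.20 ± 0.14. Per 1000 CPM of macrophage markers Tlr4 had 16.7 to 30.2 CPM in control, 35.8 to 44.3 CPM in busulfan, 20.5 to 43.3 CPM in control-FMT and 22.5 to 34.3 CPM in AOS-FMT. On that scale busulfan lay above control and AOS-FMT without overlap, although the CPM of busulfan overlapped both. The marker sum used as divisor was itself lower in busulfan (492 to 687 CPM) than in control (760 to 1056 CPM) and AOS-FMT (767 to 1089 CPM). The share of all genes that separate on this scale was not computed. Tlr4 (NCBI gene 21898) lies on chromosome 4 at 66827551 to 66846581.

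The ratio of Cd14 to Tlr4 within a library does not depend on how libraries are scaled. In TPM it was 4.88, 3.49 and 5.83 in control, 3.22, 2.68 and 2.70 in busulfan, 3.46, 3.96 and 2.57 in control-FMT and 3.09, 4.63 and 4.04 in AOS-FMT. All 3 busulfan ratios lay below all 3 control ratios, and those of both FMT groups overlapped busulfan and control. This ratio was chosen after its values were seen and was not tested. For Ly96 the groups overlapped. Ly96, which holds the lipid on Tlr4, had 2.18 ± 0.60 CPM (SD, n = 3) in control, 2.28 ± 0.406 CPM in busulfan, 2.01 ± 0.566 CPM in control-FMT and 2.10 ± 0.469 CPM in AOS-FMT. Lbp, the plasma carrier, had 21.3 ± 7.53, 19.4 ± 4.13, 18.9 ± 4.23 and 29.7 ± 7.63 CPM in the same order. The liver markers were also highest in AOS-FMT, and their part in the Lbp level was not tested.

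Tlr2, the receptor for bacterial lipopeptides, had 5.22, 8.36 and 6.42 CPM in control and 4.87, 6.70 and 4.74 CPM in busulfan. In control-FMT it had 7.45, 7.12 and 6.73 CPM and in AOS-FMT 6.79, 10.1 and 7.31 CPM, so both FMT groups lay wholly above busulfan and overlapped control. AOS-FMT against busulfan had a log2 fold change of 0.57 ± 0.22 (edgeR adjusted p = 0.306), and control-FMT against busulfan 0.38 ± 0.22 (edgeR adjusted p = 0.999). Of all genes, 5.41% were higher and 6.58% lower without overlap in control-FMT against busulfan, and 10.3% higher and 10.9% lower in AOS-FMT against busulfan. The AOS-FMT value was 0.38 without AOS-FMT replicate 2, 0.50 without busulfan replicate 1, 0.48 without busulfan replicate 3, and 0.35 with the atrial and 0.60 with the liver score as a covariate, in each case without an unadjusted p under 0.05. Tlr2 (NCBI gene 24088) lies on chromosome 3 at 83836272 to 83841824.

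Tlr5, the flagellin receptor, had 0.77, 1.29 and 0.476 CPM in control, 0.609, 0.594 and 0.761 CPM in busulfan, 1.25, 0.491 and 0.777 CPM in control-FMT and 2.10, 1.29 and 1.02 CPM in AOS-FMT. The AOS-FMT libraries lay above the busulfan libraries, as they did for 10.3% of all genes (below for 10.9%), and overlapped the other groups. Its log2 fold change for AOS-FMT against busulfan, 1.14 ± 0.48, was the largest of the 10 genes in any comparison (edgeR adjusted p = 0.333). It rested on 7 to 9 counts a library in busulfan and 14 to 25 in AOS-FMT. Leaving out any busulfan library (1.08 to 1.27) or AOS-FMT replicate 1 (0.81), or adding the atrial (1.0996) or the liver score (1.29) as a covariate, took its unadjusted p above 0.05. Tlr5 (NCBI gene 53791) lies on chromosome 1 at 182954752 to 182976044.

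Tlr1, a partner of Tlr2, had 1.90 to 2.14 CPM in control, 1.69 to 3.31 CPM in busulfan, 2.27 to 3.35 CPM in control-FMT and 1.61 to 3.42 CPM in AOS-FMT. Control-FMT lay above control without overlap, as did 7.16% of all genes (4.71% lay below), at a log2 fold change of 0.52 ± 0.34 (edgeR adjusted p = 0.721). Tlr1 is uncertain, because it is a close relative of Tlr6 and its estimated counts were not whole in 7 of 12 libraries. The sum of Tlr1 and Tlr6 was 3.42 to 5.55 CPM in control, 4.65 to 6.19 CPM in busulfan, 5.64 to 6.71 CPM in control-FMT and 4.24 to 6.13 CPM in AOS-FMT. By that sum, which contains Tlr1 itself, control-FMT lay just above control. Tlr6 alone overlapped, at 1.46 to 3.65 CPM in control and 2.85 to 3.37 CPM in control-FMT. No share of all genes was computed for the sum. Tlr1 (NCBI gene 21897) lies on chromosome 5 at 64924680 to 64933600.

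Myd88, the adaptor shared by all of these receptors but Tlr3, had 13.1, 10.9 and 15.4 CPM in control, 12.4, 13.4 and 9.56 CPM in busulfan, 15.1, 16.7 and 11.8 CPM in control-FMT and 15.8, 20.5 and 15.1 CPM in AOS-FMT. The AOS-FMT libraries lay above the busulfan libraries, as they did for 10.3% of all genes (below for 10.9%). The log2 fold change of Myd88 there was 0.54 ± 0.19 (edgeR adjusted p = 0.296). It was 0.41 without busulfan replicate 3 and 0.40 without AOS-FMT replicate 2, with an unadjusted p above 0.05 in both. Busulfan against control stood at -0.15 ± 0.19 and AOS-FMT against control at 0.39 ± 0.18. Per 1000 CPM of macrophage markers Myd88 had 16.3 to 25.3 CPM in busulfan and 17.9 to 19.7 CPM in AOS-FMT, ranges that overlapped. On that scale the control libraries (14.4 to 16.8 CPM) all lay below the AOS-FMT libraries, although the undivided CPM of these groups overlapped. Control-FMT, at 15.2 to 20.3 CPM, overlapped every other group, and busulfan overlapped control. How often genes in general separate after such division was not computed. Myd88 (NCBI gene 17874) lies on chromosome 9 at 119335934 to 119340018.

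The promoters of Tlr2, Myd88 and Tlr5 are shown because these are the genes that, beside Cd14, had an unadjusted p under 0.05 in AOS-FMT against busulfan. RefSeq promoter windows of GRCm38.p6, from 250 bases before to 50 after a transcript start, were found for 7 of the 10 genes, and Cd14, Tlr4 and Tlr7 had none. They were searched on both strands for GGG and CC with any 5 bases between them (NF-kB, the factor that Myd88 signalling activates), TGANTCA (AP-1), a pair of GAAA with any 2 bases between them (the interferon-stimulated response element) and GAGGAA (PU.1, a myeloid factor). Capitals mark matches, and overlapping matches run together.
Tlr2, chr3:83841559-83841858, minus strand: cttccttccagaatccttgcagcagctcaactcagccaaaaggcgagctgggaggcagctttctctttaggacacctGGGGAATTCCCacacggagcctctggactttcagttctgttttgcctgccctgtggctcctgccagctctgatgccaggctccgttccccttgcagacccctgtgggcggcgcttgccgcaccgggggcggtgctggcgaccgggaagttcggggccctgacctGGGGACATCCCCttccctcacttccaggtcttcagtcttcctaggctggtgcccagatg
Myd88, chr9:119339969-119340268, minus strand: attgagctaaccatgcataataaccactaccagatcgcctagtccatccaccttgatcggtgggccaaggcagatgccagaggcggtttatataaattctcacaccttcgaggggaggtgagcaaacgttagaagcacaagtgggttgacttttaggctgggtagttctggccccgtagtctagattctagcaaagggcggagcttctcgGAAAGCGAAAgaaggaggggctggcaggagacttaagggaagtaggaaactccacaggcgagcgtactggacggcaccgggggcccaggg
Tlr5, chr1:182954538-182954837, plus strand: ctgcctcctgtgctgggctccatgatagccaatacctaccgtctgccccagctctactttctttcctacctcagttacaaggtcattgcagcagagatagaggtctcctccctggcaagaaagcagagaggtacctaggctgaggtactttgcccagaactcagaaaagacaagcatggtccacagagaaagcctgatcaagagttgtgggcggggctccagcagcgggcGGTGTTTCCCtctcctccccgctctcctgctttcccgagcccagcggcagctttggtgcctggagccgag
The Tlr2 window held 7 overlapping matches to the NF-kB letters, in the 2 stretches GGGGAATTCCC and GGGGACATCCCC, the Tlr5 window held 1 such match, and the Myd88 window held 1 match to the interferon element. Matches to the NF-kB letters are common, being in 50.8% of all 32851 promoter windows, while the interferon element is in 3.44%, the AP-1 letters in 7.81% and the PU.1 letters in 28.3%. In the other windows, Tlr3 had 3 NF-kB matches, Tlr9 1 AP-1 and 2 PU.1 matches, and Tlr13 and Tlr1 1 PU.1 match each. A match describes the letters only.

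Tlr13 senses bacterial ribosomal RNA and is an endosomal receptor. It had 4.02, 5.77 and 4.36 CPM in control, 2.61, 5.52 and 3.81 CPM in busulfan, 6.11, 11.05 and 5.44 CPM in control-FMT and 7.55, 5.94 and 4.39 CPM in AOS-FMT. Control-FMT replicate 2 stood apart at the top and busulfan replicate 1 at the bottom. Control-FMT against busulfan had a log2 fold change of 0.92 ± 0.33 (edgeR adjusted p = 0.999). It was 0.54 without control-FMT replicate 2 and 0.69 without busulfan replicate 1, with an unadjusted p above 0.05 in both. Control-FMT replicate 2 also had the largest sum of macrophage markers, 1096 CPM. Its mean log2 level over the 14 markers was 4.58, however, below every control library (4.63 to 5.04). The sum is thus not a measure of all 14 markers alike. Per 1000 CPM of those markers Tlr13 had 8.27 to 10.1 CPM in control-FMT and 5.31 to 8.03 CPM in busulfan. It had 4.13 to 7.59 CPM in control and 5.45 to 8.54 CPM in AOS-FMT. On that scale control-FMT thus lay above control, and narrowly above busulfan, and overlapped AOS-FMT. No share of all genes was computed for that scale. Tlr13 (NCBI gene 279572) lies on chromosome X at 106143275 to 106160493.

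Tlr3, the receptor for double-stranded RNA, overlapped between all groups. It had 15.4, 15.5 and 15.9 CPM in busulfan and 16.3, 16.04 and 15.3 CPM in control-FMT, and ranged from 12.7 to 20.4 CPM in control and from 15.9 to 19.2 CPM in AOS-FMT. Its log2 fold changes lay between -0.05 ± 0.15 for busulfan against control and 0.19 ± 0.15 for AOS-FMT against busulfan. Tlr7, the receptor for single-stranded RNA, had 4.19 to 6.50 CPM in control, 3.83 to 5.94 CPM in busulfan, 4.78 to 6.22 CPM in control-FMT and 4.97 to 7.46 CPM in AOS-FMT, and all groups overlapped. Tlr7 lies on chromosome X at 167303380 to 167330574, and its counts were not whole in 10 of 12 libraries. Tlr9, the receptor for unmethylated CpG DNA, had 0.684 to 0.952 CPM in control, 0.522 to 1.35 CPM in busulfan, 0.862 to 1.64 CPM in control-FMT and 1.09 to 1.29 CPM in AOS-FMT. AOS-FMT lay above control without overlap, as did 6.63% of all genes (3.80% lay below), at 0.56 ± 0.41 (edgeR adjusted p = 0.739). Tlr3 (NCBI gene 142980) lies on chromosome 8 at 45395665 to 45411075 and Tlr9 (81897) on chromosome 9 at 106222598 to 106226876.

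In busulfan against control, the 10 genes had a median log2 fold change of -0.12, with 3 of 10 above 0, where all genes had a median of -0.01 and 47.7% above 0. At an unadjusted p under 0.05, 1 was lower (Cd14) and 0 higher, against 5.78% of all genes lower and 5.54% higher. For control-FMT against busulfan the median was 0.28 with 10 of 10 above 0 (all genes, 49.9%) and 1 higher at that p (Tlr13, all genes 1.76% higher and 0.890% lower). Tlr4 (0.006 ± 0.144) and Tlr3 (0.024 ± 0.153) were close to 0 there. For AOS-FMT against busulfan the median was 0.44, again with 10 of 10 above 0 (all genes, 50.7%), and 4 were higher (Cd14, Myd88, Tlr2 and Tlr5), where 7.80% of all genes were higher and 5.85% lower. These comparisons share the busulfan libraries. The 4 became 2 without busulfan replicate 1, 1 without busulfan replicate 3, 2 without AOS-FMT replicate 2 and 2 with the atrial score as a covariate. Scaling by library size alone moved the median of all genes up by 0.13 in AOS-FMT against busulfan. That setting is therefore no check on the 10 of 10. Over the alternatives tried, 9 to 10 genes were above 0 in this comparison and 9 to 10 in control-FMT against busulfan. Tlr1 was close to 0 in AOS-FMT against busulfan, at 0.02 ± 0.33.

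For AOS-FMT against control-FMT, which shares no library with busulfan against control, the median was 0.17 with 7 of 10 above 0 (all genes, 50.6%) and 1 higher at an unadjusted p under 0.05 (Cd14, all genes 3.88% higher and 2.35% lower). Against control, the medians were 0.12 for control-FMT, with 7 of 10 above 0 (all genes, 47.4%) and 0 higher or lower at that p (all genes, 4.46% and 3.74%), and 0.31 for AOS-FMT, with 10 of 10 above 0 (all genes, 49.0%) and 1 higher (Tlr4, all genes 5.43% higher and 3.44% lower). The medians of the 4 surface and the 4 endosomal receptors were 0.38 and 0.31 in AOS-FMT against busulfan, 0.19 and 0.04 in AOS-FMT against control-FMT and 0.16 and 0.36 in control-FMT against control, and the difference between the classes was not tested. In AOS-FMT against busulfan, Cd14 and Myd88 stood above both medians at 0.65 and 0.54. Of the single receptors, Tlr5 (1.14) lay above Cd14, Tlr13 (0.58) and Tlr2 (0.57) above Myd88 only, and the rest below both.

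**Figure D4:**
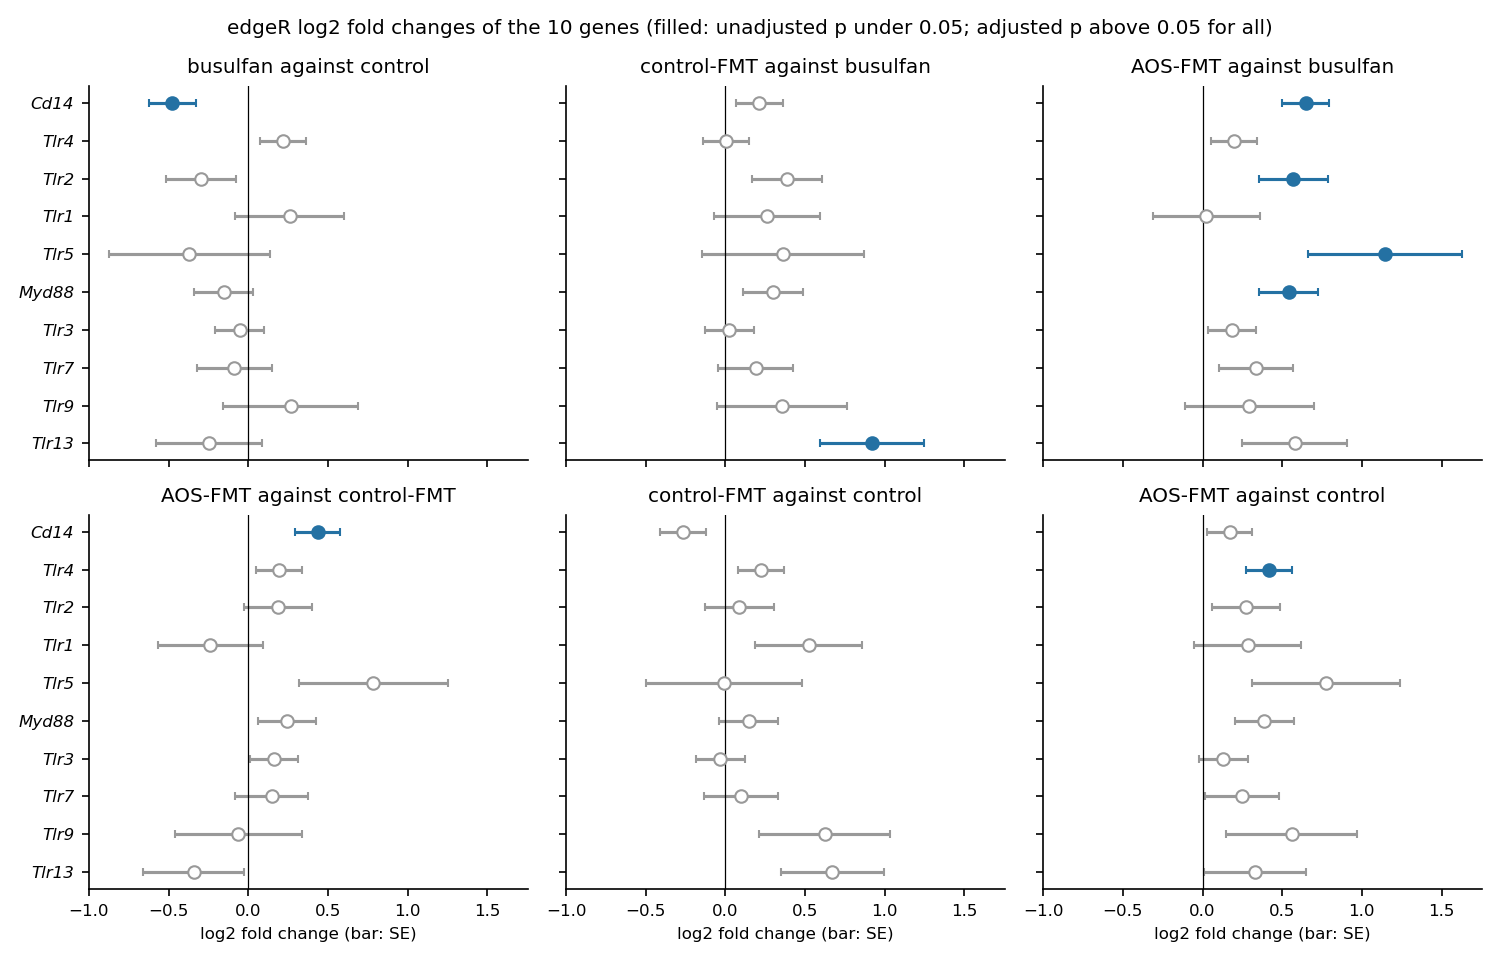
Log2 fold change of each of the 10 genes in the 6 comparisons (edgeR, bars are SE), with filled points where the unadjusted p was under 0.05 and open points elsewhere. Cd14 stands at -0.48 in busulfan against control and at 0.65 in AOS-FMT against busulfan, and no point passed the adjusted threshold.

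The wider pathway was followed with 71 further genes, of which 63 were tested: other receptors and accessory proteins, adaptors and kinases, transcription factors, brakes and inducible outputs. None passed over all genes with edgeR in any comparison. At an unadjusted p under 0.05, busulfan against control had 1 higher and 5 lower (all genes, 5.54% and 5.78%), control-FMT against busulfan 0 and 0 (1.76% and 0.890%) and AOS-FMT against busulfan 8 and 1 (7.80% and 5.85%). AOS-FMT against control-FMT had 8 and 2 (3.88% and 2.35%), control-FMT against control 3 and 2 (4.46% and 3.74%) and AOS-FMT against control 6 and 1 (5.43% and 3.44%). DESeq2 results were kept only for the pathway genes with the smallest unadjusted p, up to 4 a comparison. Among these, DESeq2 called Il1b and Nfkbia in AOS-FMT against busulfan and Il1b in AOS-FMT against control-FMT. The median over the 63 stayed between -0.04 and 0.08 in the 6 comparisons.

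Tlr8, an endosomal receptor for RNA like Tlr7, was like Cd14 lowest in busulfan. It had 4.72 ± 0.321 CPM in control, 2.47 ± 0.789 CPM in busulfan, 3.62 ± 0.878 CPM in control-FMT and 4.28 ± 0.712 CPM in AOS-FMT. Busulfan against control stood at -0.93 ± 0.27 (log2, edgeR adjusted p = 0.292) and AOS-FMT against busulfan at 0.79 ± 0.27 (edgeR adjusted p = 0.296). Ly86, which partners a Toll-like protein of B cells and macrophages, stood at -0.68 ± 0.24 for busulfan against control (edgeR adjusted p = 0.346), with 7.45 ± 1.85 CPM against 11.99 ± 3.11 CPM.

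In AOS-FMT against busulfan, 3 of 10 tested outputs of the pathway and 2 of 12 brakes were higher at an unadjusted p under 0.05 and none lower. At that p 7.80% of all genes were higher and 5.85% lower. In AOS-FMT against control-FMT, 3 outputs were higher and 2 lower, and 2 brakes were higher (all genes, 3.88% higher and 2.35% lower). Il1b, an inflammatory cytokine induced through NF-kB, had 1.71 ± 0.81 CPM in control, 0.486 ± 0.222 CPM in busulfan, 0.492 ± 0.283 CPM in control-FMT and 3.72 ± 1.80 CPM in AOS-FMT. AOS-FMT stood at 2.92 ± 0.57 against busulfan (edgeR adjusted p = 0.168, DESeq2 adjusted p = 0.00243) and at 2.90 ± 0.57 against control-FMT (edgeR adjusted p = 0.197, DESeq2 adjusted p = 0.00438). Without AOS-FMT replicate 1, edgeR called the difference from busulfan (adjusted p = 0.0389). Against control, Il1b stood at -1.80 ± 0.59 in busulfan and -1.78 ± 0.59 in control-FMT (edgeR adjusted p = 0.325 and 0.438). It rested on 3 to 10 counts a library in busulfan and control-FMT. Nfkbia and Nfkbie encode inhibitors of NF-kB that are themselves induced by it. Nfkbia had 46.1 ± 5.24, 43.3 ± 5.53, 47.8 ± 3.47 and 61.0 ± 6.92 CPM in control, busulfan, control-FMT and AOS-FMT, and Nfkbie had 3.495 ± 0.408, 3.96 ± 0.548, 3.30 ± 0.266 and 5.65 ± 0.588 CPM. For both, the AOS-FMT libraries lay above those of every other group. Of all genes, 10.3% were higher without overlap against busulfan (10.9% lower), 6.52% against control-FMT (7.29% lower) and 6.63% against control (3.80% lower). The share higher against all groups at once was not computed. Both genes were named for their small unadjusted p, which favours such separation. Nfkbia stood at 0.50 ± 0.13 in AOS-FMT against busulfan (edgeR adjusted p = 0.242, DESeq2 adjusted p = 0.0434) and 0.40 ± 0.13 against control (edgeR adjusted p = 0.332). Nfkbie stood at 0.77 ± 0.20 against control-FMT (edgeR adjusted p = 0.638) and 0.69 ± 0.20 against control (edgeR adjusted p = 0.254). The outputs did not all go one way: Tnf, another inflammatory cytokine, had 0.502 ± 0.209 CPM in AOS-FMT and 1.52 ± 0.402 CPM in control-FMT, a log2 fold change of -1.56 ± 0.55 (edgeR adjusted p = 0.752). Cxcl10, a chemokine, stood at 1.79 ± 0.53 in the same comparison (edgeR adjusted p = 0.706), with means of 2.20 CPM in AOS-FMT and 0.620 CPM in control-FMT. Tnf and Cxcl10 thus also rested on few reads, 1 read being worth 0.0645 to 0.087 CPM.

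Nos2, the inducible nitric oxide synthase, and Ticam1, the adaptor that Tlr3 uses in place of Myd88, were higher at an unadjusted p under 0.05 in both FMT groups against control, and Nos2 also in busulfan against control. Nos2 had 9.70 ± 1.87 CPM in control, 14.5 ± 3.26 CPM in busulfan, 16.2 ± 2.88 CPM in control-FMT and 15.5 ± 4.21 CPM in AOS-FMT. Nos2 stood at 0.58 ± 0.22 in busulfan (edgeR adjusted p = 0.375), 0.74 ± 0.22 in control-FMT (edgeR adjusted p = 0.400) and 0.67 ± 0.22 in AOS-FMT (edgeR adjusted p = 0.378), each against control. Ticam1 had 16.2 ± 2.80, 18.4 ± 2.94, 22.7 ± 2.36 and 21.3 ± 1.21 CPM in the same order, and control-FMT against control was 0.48 ± 0.15 (edgeR adjusted p = 0.418) and AOS-FMT against control 0.39 ± 0.15 (edgeR adjusted p = 0.482). Rela, a subunit of NF-kB, stood at 0.33 ± 0.11 in control-FMT against control (edgeR adjusted p = 0.431). Tab1, a kinase-binding protein of the pathway, stood at -0.36 ± 0.12 in AOS-FMT against busulfan (edgeR adjusted p = 0.296).

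For each of the 10, the genes with the most similar profile were taken as the 3 with the highest Pearson's r of log2 CPM over the 12 libraries, which share group, tissue content and depth, so these are descriptions. Cd14 was nearest to Selenop (0.934), Cd302 (0.925) and Mgst1 (0.916). Myd88 was nearest to Fcrls (0.919), a macrophage gene, Unc93b1 (0.908), which escorts endosomal Toll-like receptors, and Papss1 (0.895). Tlr13 was nearest to Rassf4 (0.898), Lcp1 (0.882) and Cybb (0.862), the latter 2 being genes of white blood cells, and Tlr7 to Cd300ld3 (0.908), Qtrt2 (0.906) and Bmp1 (0.880). Tlr4 was nearest to Hacd4 (0.925), Mbtps2 (0.891) and Srgap2 (0.889), Tlr2 to Eef1akmt2 (0.932), Srd5a3 (0.922) and Tgfbr2 (0.907), and Tlr3 to Tsc22d2 (0.930), Ranbp2 (0.859) and Nbr1 (0.852). The sparse Tlr1, Tlr5 and Tlr9 were nearest to Nagpa (0.848), Rbm15 (0.846) and Pqlc3 (0.894).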

How the data were processed

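Hearts of 12 libraries in 4 groups of 3 were analysed, grouped by the treatment label. The authors deposited estimated counts, TPM and FPKM per gene, per the file headers, together with their group means of these, which were not used. FPKM values were deposited too and entered no result. Per the submitters' processing notes, Bowtie 0.12.2 and the mm10 build were used. The sources used here name neither a counting tool nor an annotation. The deposited estimated counts, 94.7% to 95.3% whole within 1e-09 per library, were rounded. filterByExpr left 13489 of 17536 genes. After TMM scaling, edgeR 4.0.16 (R 4.3.3; glmQLFit with robust set) was run on all 12 libraries with group as the only term. The call threshold was 0.05 for the p adjusted by Benjamini and Hochberg's method. The common biological coefficient of variation was 18.6%.

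Fold changes are given for members with an unadjusted p under 0.05 and, chosen after their values were seen, for some others, and pathway genes by the 4 smallest such p in a comparison, with Ly96, Lbp, Tlr6, Tlr11 and Tlr12 added after their values were seen. Profile likeness used genes of at least 5 CPM and a prior count of 2. Gene positions and promoters are from RefSeq on GRCm38.p6, where 17487 of the listed IDs matched. The members and lists were chosen with earlier results of these data known. DESeq2 1.42.0, limma 3.58.1 (voom), other scalings, covariates, a replicate block and leaving out each library were tried. The procedure was tested on simulated data. Replicates of a group differed beyond sampling noise (chi-square over its degrees of freedom, 8.91 to 73.1).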

Additional observations from a re-analysis of the deposited data

How the results depend on the processing

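Counts of genes, and fold changes of members with an unadjusted p under 0.05, were recomputed under 21 alternatives, 12 of which left out 1 library. So were the fold changes of up to 4 pathway genes a comparison. Other fold changes, the TPM order, ratios, levels per macrophage marker, overlap of groups and profile likeness were not recomputed. The 8 member differences with an unadjusted p under 0.05 kept their sign in all 168 refits, and p stayed under 0.05 in 149 of them. No member was called in any comparison under any alternative but DESeq2, which called 1 in AOS-FMT against busulfan. Leaving out each library gave 0 to 0 members called in each of the 6 comparisons. With a replicate block 0 members were called in each comparison, while calls over all genes went from 6 to 14 in AOS-FMT against busulfan, from 0 to 7 in control-FMT against control and from 11 to 25 in AOS-FMT against control. Same-numbered libraries did not deviate together throughout (correlations from -0.161 to 0.454), so the block tests only a shared number. Over all genes DESeq2 called 123, 2, 131, 32, 92 and 122 genes and edgeR 8, 0, 6, 4, 0 and 11, in busulfan against control, control-FMT and AOS-FMT against busulfan, AOS-FMT against control-FMT, and control-FMT and AOS-FMT against control; the cause was not tested. Leaving out each library gave 0 to 14, 0 to 1, 0 to 20, 0 to 4, 0 to 7 and 1 to 17 in the same order, the lowest and highest in AOS-FMT against busulfan being without busulfan replicate 1 or 2 (0) and AOS-FMT replicate 1 (20). Members higher at an unadjusted p under 0.05 numbered 1 to 5 in AOS-FMT against busulfan, 0 to 2 in control-FMT against busulfan, 0 to 2 in control-FMT against control and 0 to 3 in AOS-FMT against control. Depth limits Tlr5 and Tlr9, with 6 counts in their lowest library. With 3 libraries a group, a p that misses the threshold does not show that levels were alike.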
